A study of Rattus norvegicus with 18 samples.

Results

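The miRNAs miR-183, miR-96 and miR-182 are made from 3 precursors that lie beside each other in the rat genome. The members were all rows named miR-182, miR-183 or miR-96, whichever arm of the hairpin they came from. They numbered 5 of the 753 miRNAs in the table, named there rno-miR-182, rno-miR-183-5p, rno-miR-183-3p, rno-miR-96-5p and rno-miR-96-3p (the prefix, for rat, is left out from here on). Of these, 4 passed the filter of more than 10 counts in at least 6 libraries, as did 373 miRNAs in all, and miR-183-5p had no count in any library.

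Small RNA was sequenced from cervical dorsal root ganglia of adult Lister Hooded rats, with the ganglia of segments C6 to C8 from one side combined into 1 library per rat. The 6 naive rats were unoperated. The other 12 rats had bilateral pyramidotomy (bPYX), a cut of the corticospinal tract in both pyramids, followed by injection of an AAV1 vector into forelimb flexor muscles of one side. The vector encoded green fluorescent protein in 6 rats (bPYX+GFP) and human neurotrophin-3 in the other 6 (bPYX+NT3), in both cases from the CMV promoter, and ganglia were taken 10 weeks after injury. The cut spares the sensory neurons themselves, the naive rats received neither surgery nor vector, and the homogenised ganglia held neurons, glia and other cells together. The effects of the lesion and of the GFP vector therefore cannot be told apart.

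A miRNA pairs with matching sites in messenger RNAs, mainly through its seed at bases 2 to 8, and lowers the output of those messages. The precursors of this cluster are known to be transcribed together and to be abundant in sensory cells, among them photoreceptors, hair cells of the inner ear and neurons of the sensory ganglia. Each precursor hairpin can give a mature miRNA from its 5′ arm (5p) and one from its 3′ arm (3p), of which usually one predominates.

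The mature sequences are shown because miR-182, miR-96-5p and miR-183-5p share most bases of their seeds, and the 3p arms are given for completeness. They were read from RefSeq for the rat assembly GRCr8, in which all 5 members were found, and the capitals mark bases 2 to 8.
miR-182: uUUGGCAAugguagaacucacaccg
miR-96-5p: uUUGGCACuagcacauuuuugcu
miR-183-5p: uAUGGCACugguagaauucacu
miR-183-3p: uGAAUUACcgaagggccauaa
miR-96-3p: cAAUCAUGugcagugccaauau

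The seeds of miR-182 and miR-96-5p shared 6 of their 7 bases and differed by A8C (the base of miR-182, the position from the 5′ end, the base of miR-96-5p). The seeds of miR-96-5p and miR-183-5p differed only by U2A. Those of miR-182 and miR-183-5p differed by both U2A and A8C. Along their whole length, however, miR-182 and miR-183-5p were the most similar pair, with 18 of 22 positions the same (81.8%), against 13 of 22 (59.1%) for miR-96-5p and miR-183-5p and 12 of 23 (52.2%) for miR-182 and miR-96-5p. Among 693 mature rat miRNAs in RefSeq, miR-182 and miR-96-5p shared bases 2 to 7 with each other and with no further miRNA.

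The hairpins are shown with the annotated mature miRNAs in capitals, on the minus strand of chromosome 4 in GRCr8. Mir183 lies at chr4:59756044-59756153, Mir96 at chr4:59755841-59755946 and Mir182 at chr4:59752246-59752307.
Mir183: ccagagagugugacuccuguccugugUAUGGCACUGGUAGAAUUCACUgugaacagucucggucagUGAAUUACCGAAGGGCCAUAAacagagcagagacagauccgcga
Mir96: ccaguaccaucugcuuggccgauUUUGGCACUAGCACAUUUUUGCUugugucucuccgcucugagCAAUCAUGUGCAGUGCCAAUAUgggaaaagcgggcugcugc
Mir182: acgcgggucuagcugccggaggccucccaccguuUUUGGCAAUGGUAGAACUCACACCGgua

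Mir183 and Mir96 were separated by 97 bases, and Mir96 and Mir182 by 3533 bases. The 3908 bases of the whole cluster overlapped no other annotated gene than Mir3553, a miRNA gene on the opposite strand. The nearest protein-coding genes on either side were Nrf1 and Ube2h. The files were aligned to Rnor_5.0, of which no sequence was used here.

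The libraries held 3.88 to 6.92 M miRNA counts each, and the group means were 4.77 ± 0.42 M for naive rats, 4.92 ± 0.99 M for those with GFP and 4.41 ± 0.43 M for those with NT3 (SD, n = 6 each). Levels are given as counts per M of miRNA counts (CPM) after TMM scaling, and were not divided by length, since the mature members are 21 to 25 bases long. Replicates were separate rats. The study left naive replicate 1 out as an outlier, and here it was kept, with values lacking it given where they matter.

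Counts leave out reads of low alignment quality, on average 31.4% of entries. Whether these fell equally on all miRNAs was not tested, so levels and ranks are those among counted reads. Among counted reads, miR-182 was one of the most abundant miRNAs of the ganglia. Its mean level over all rats was 25163 ± 2534 CPM (SD, n = 18), which placed it at rank 9 of the 373 tested miRNAs, between miR-22-3p at 27879 CPM and miR-126a-3p at 24449 CPM. Within single libraries its rank lay between 8 and 14. Naive rats had 2.25 ± 0.22% of their miRNA counts in miR-182, bPYX+GFP rats 2.62 ± 0.20% and bPYX+NT3 rats 2.68 ± 0.18% (SD, n = 6 each).

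miR-96-5p, whose seed differs from that of miR-182 at a single base, followed at rank 29 with a mean of 4283 ± 494 CPM (SD, n = 18), and its rank in single libraries lay between 25 and 31. The ratio of miR-182 to miR-96-5p counts was 5.92 ± 0.72 (SD, n = 18) and ranged from 4.74 to 7.22. The opposite arms were far lower. miR-183-3p stood at rank 232 with 33.4 ± 4.67 CPM, and miR-96-3p at rank 294 with 10.4 ± 2.81 CPM (SD, n = 18 each). The counts of miR-96-3p came to 0.24 ± 0.07% of those of miR-96-5p from the same hairpin.

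**Figure D1:**
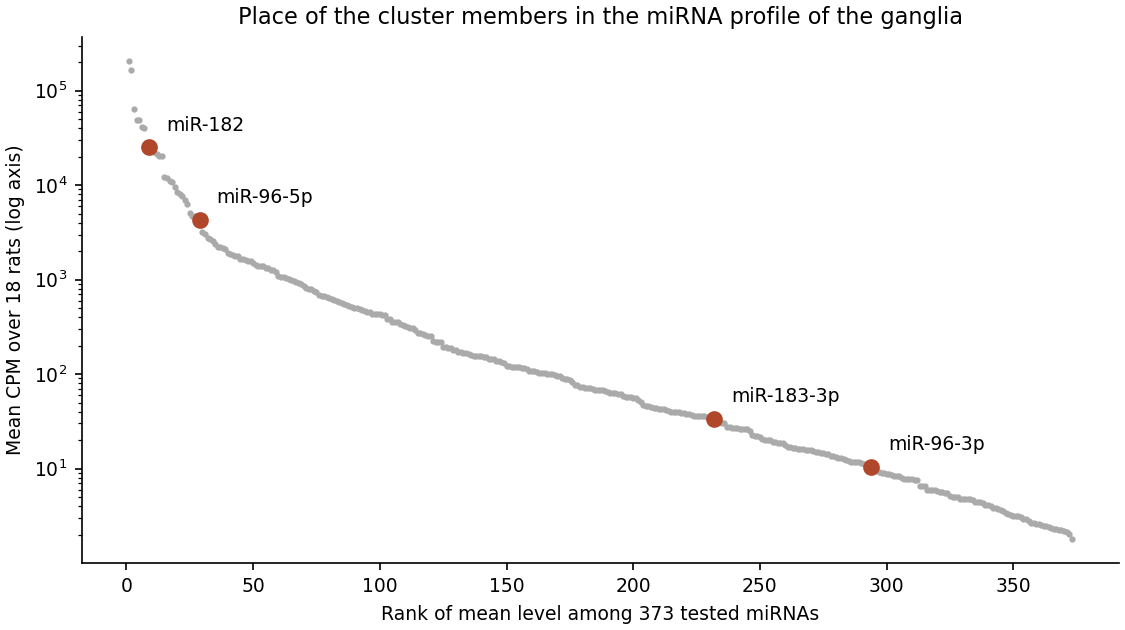
Mean level of each of the 373 tested miRNAs over 18 rats (CPM after TMM scaling, log axis) against its rank, with the 4 detected cluster members as large red points. miR-182 and miR-96-5p lie at ranks 9 and 29, and the 3p arms of miR-183 and miR-96 at ranks 232 and 294.

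The spread between rats of a group differed among the members. The within-group SD of the log2 level was 0.126 for miR-182, the 36th lowest of 373 miRNAs. It was 0.169 for both miR-183-3p and miR-96-5p, below the median of 0.215 over all tested miRNAs. It was 0.417 for miR-96-3p, which had only 23 to 75 counts per library.

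The first comparison, bPYX+GFP against naive, asked what differed in the ganglia 10 weeks after corticospinal injury. No member passed an adjusted p of 0.05 (edgeR quasi-likelihood test, Benjamini-Hochberg over 373 miRNAs), and 2.41% of all tested miRNAs did. By an unadjusted p under 0.05 in the same test, miR-182 and miR-183-3p were higher in bPYX+GFP and miR-96-5p and miR-96-3p did not pass. With edgeR's likelihood ratio test, miR-182 also passed (unadjusted p = 0.0224) and miR-183-3p did not (unadjusted p = 0.0992). The background for this call is 21.2% of tested miRNAs in either direction and 10.7% in the higher one.

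miR-182 lay between 19524 and 26207 CPM in naive rats, with a median of 23270. In bPYX+GFP it lay between 24297 and 28570 CPM, with a median of 26169. All 6 bPYX+GFP rats were above the naive mean and 3 of them above the highest naive rat, so the groups overlapped, as they did for every detected member and for all but 4.02% of tested miRNAs. The means were 22968 ± 2505 CPM in naive and 26306 ± 1593 CPM in bPYX+GFP (SD, n = 6 each). Fitting gave a log2 fold change of 0.20 ± 0.08 (SE; 95% interval 0.03 to 0.36), or 1.15-fold, with an unadjusted p of 0.0223 and an adjusted p of 0.173 in edgeR's quasi-likelihood test. A log2 fold change at least as high was found for 16.9% of tested miRNAs. With naive replicate 1 left out, the value was 0.20 and its adjusted p in edgeR 0.236. The unadjusted p was 0.0574 when naive replicate 4 was omitted, and 0.0564 when replicate 1 of bPYX+GFP was.

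miR-183-3p, the less used arm of its hairpin in most tissues, lay between 27.1 and 34.3 CPM in naive rats, with a median of 29.5. In bPYX+GFP it lay between 31.3 and 39.2 CPM, with a median of 35.0. Here too all 6 bPYX+GFP rats were above the naive mean and 3 were above the highest naive rat. This amounted to a log2 fold change of 0.23 ± 0.10 (SE; 95% interval 0.02 to 0.43), or 1.17-fold, with an unadjusted p of 0.0327 and an adjusted p of 0.222 in the edgeR test. These levels rest on 121 to 156 counts per library in naive and 140 to 197 in bPYX+GFP. Scaled by library size only, its unadjusted edgeR p was 0.0516. With naive replicate 1 left out, the log2 fold change was 0.27 (edgeR adjusted p = 0.163). The unadjusted edgeR p rose above 0.05 in 6 of the 12 fits that each omitted 1 rat, to 0.0685, 0.0629 and 0.0636 for naive rats 3, 5 and 6 and to 0.0703, 0.0757 and 0.0847 for rats 1, 2 and 5 of the GFP group.

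miR-96-5p lay between 3883 and 4804 CPM in naive, with a median of 4163, and between 3601 and 5139 CPM in bPYX+GFP, with a median of 4544. The bPYX+GFP rats spanned the whole naive range and went past it at both ends. A log2 fold change of 0.07 ± 0.08 (SE; 95% interval -0.11 to 0.24; edgeR adjusted p = 0.710) was fitted. With 1 rat left out it ran from 0.02 (without rat 6 of the GFP group) to 0.13 (without its rat 3), with unadjusted edgeR p-values of 0.0897 to 0.809. miR-96-3p lay between 5.69 and 14.6 CPM in naive and between 7.30 and 13.0 CPM in bPYX+GFP, and its fitted difference was 0.015 ± 0.22 on the log2 scale (SE; 95% interval -0.45 to 0.48; edgeR adjusted p = 0.983). With 1 rat left out the direction turned, from -0.11 without naive rat 2 to 0.13 without naive rat 5. The 95% interval leaves room for changes of miR-96-3p larger than the value of miR-182.

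**Figure D2:**
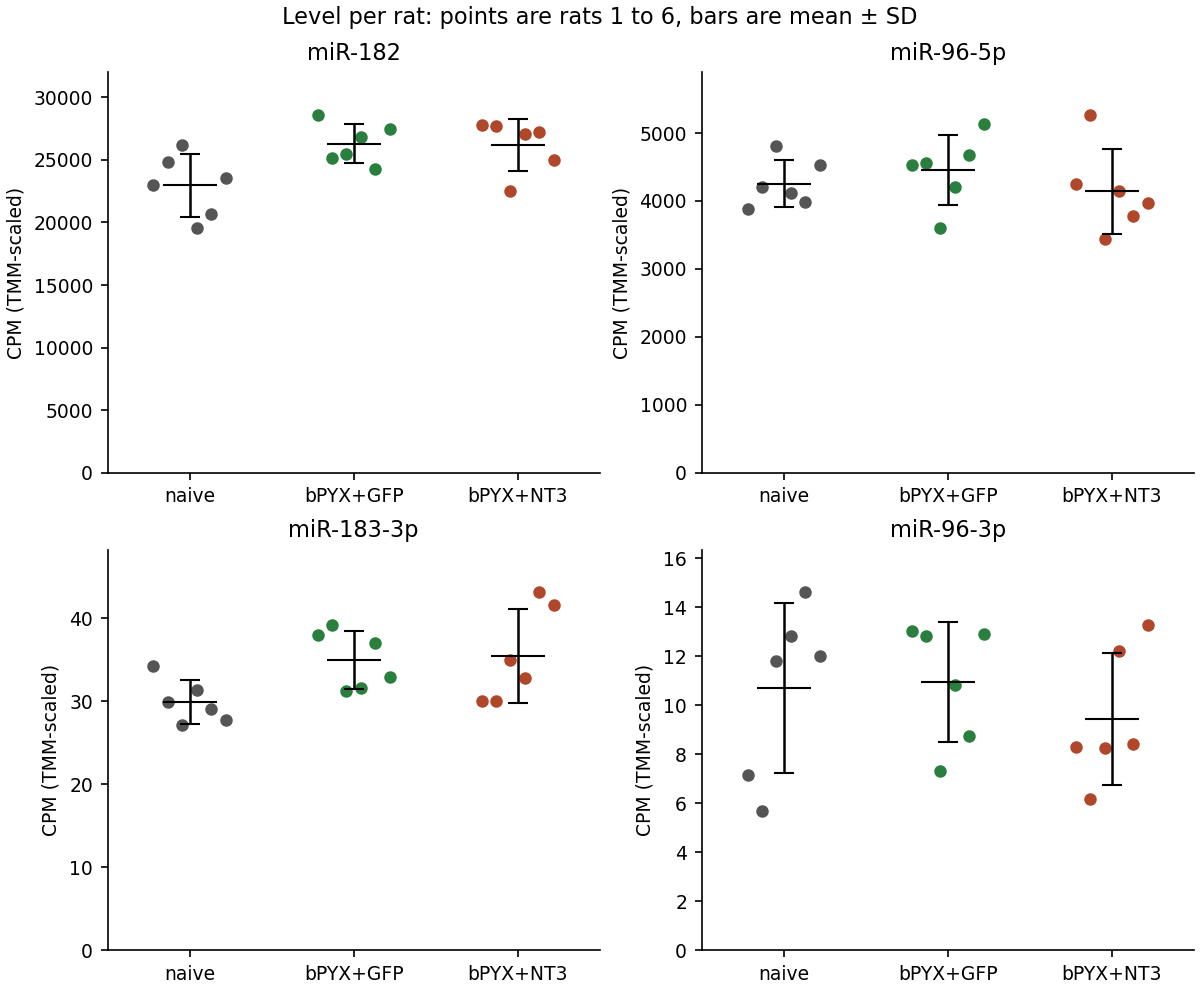
Level of each detected member in every rat (CPM after TMM scaling, axes from 0), with points for rats 1 to 6 of each group from left to right and bars for mean ± SD. All groups overlap, and the 6 bPYX+GFP rats lie above the naive mean for miR-182 and miR-183-3p.

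Setting bPYX+NT3 against bPYX+GFP asked what the neurotrophin-3 vector changed against the control vector. No member passed in either way, by adjusted or by unadjusted p. In edgeR's test none of the 373 miRNAs passed the adjusted threshold in this comparison, 8.58% passed the unadjusted one (5.09% higher and 3.49% lower in bPYX+NT3), and for none, a share of 0%, did the groups separate without overlap. DESeq2 also called none after adjustment.

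In bPYX+NT3, miR-182 lay between 22485 and 27784 CPM, with a median of 27150 and a mean of 26215 ± 2085 CPM (SD, n = 6). Only replicate 3 lay below the lowest bPYX+GFP rat and none above the highest. Its log2 fold change was 0.0048 ± 0.07 (SE), with a 95% interval of -0.14 to 0.15 and an adjusted p of 0.984 in edgeR, and 48.3% of tested miRNAs had a value at least as high. With 1 rat left out the value ran from -0.03 to 0.03.

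miR-183-3p lay between 30.0 and 43.1 CPM in bPYX+NT3, with a median of 33.9, and 2 rats each were above and below the range of bPYX+GFP. Its log2 fold change against bPYX+GFP was 0.03 ± 0.12 (SE; 95% interval -0.24 to 0.29; edgeR adjusted p = 0.950), and between -0.04 and 0.08 with 1 rat left out. miR-96-5p lay between 3434 and 5262 CPM in bPYX+NT3, with a median of 4064. The rat of bPYX+NT3 with the highest miR-96-5p was replicate 2, and the other 5 were below the bPYX+GFP mean. Here the fit gave a log2 fold change of -0.10 ± 0.11 (SE; 95% interval -0.33 to 0.14; edgeR adjusted p = 0.826). Without bPYX+NT3 replicate 2 it was -0.19, with an unadjusted p of 0.0474 and an adjusted p of 0.415 in edgeR. miR-96-3p lay between 6.16 and 13.3 CPM in bPYX+NT3, and differed from bPYX+GFP by -0.20 ± 0.21 on the log2 scale (SE; 95% interval -0.64 to 0.24; edgeR adjusted p = 0.792). Across fits that each omitted 1 rat, this difference ran from -0.31 to -0.12.

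The last comparison, of bPYX+NT3 with naive, shares its naive rats with the first, so both can carry the same deviation of those rats. No miRNA passed the adjusted threshold in edgeR's quasi-likelihood test on the libraries of this comparison. In DESeq2, in edgeR's likelihood ratio test and in a joint fit of all groups, 1 passed. The unadjusted threshold of the quasi-likelihood test was passed by 13.7% of tested miRNAs. These were made up of 7.24% that were higher and 6.43% that were lower in bPYX+NT3. Groups did not overlap for 1.34% of tested miRNAs, none of them a member. Of the members, miR-182 alone had an unadjusted p under 0.05 in the quasi-likelihood test. It did not with edgeR's robust prior (unadjusted p = 0.0522), nor with replicate numbers as a block. Its 6 bPYX+NT3 values included 5 above the naive mean and 4 above the highest naive rat. Its log2 fold change was 0.19 ± 0.09 (SE; 95% interval 0.01 to 0.37), a value reached by 17.4% of tested miRNAs, with an unadjusted p of 0.0407 and an adjusted p of 0.349 in edgeR. Omitting naive rat 1, naive rat 4 or rat 5 of the NT3 group moved that unadjusted edgeR p to 0.0599, 0.102 and 0.0739, respectively.

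For miR-183-3p all 6 bPYX+NT3 rats were above the naive mean and 3 were above the highest naive rat. The log2 fold change against naive was 0.25 ± 0.12 (SE; 95% interval -0.00035 to 0.49), with an unadjusted p of 0.0503 and an adjusted p of 0.349 in edgeR. In 5 other fits the unadjusted p was under 0.05, between 0.0295 with library size only and 0.0426 with size factors by median of ratios, and in edgeR's likelihood ratio test it was 0.0927. Omitting naive rat 1 brought the unadjusted edgeR p to 0.0288, and omitting rats 1, 2 or 4 of the NT3 group brought it to 0.0173, 0.0302 and 0.0390. In the remaining 8 of the 12 fits that each omitted 1 rat, the unadjusted edgeR p stayed above 0.05 and reached 0.135. miR-96-5p had a log2 fold change of -0.04 ± 0.10 (SE; 95% interval -0.24 to 0.17) and miR-96-3p one of -0.19 ± 0.23 (SE; 95% interval -0.68 to 0.31), with edgeR adjusted p-values of 0.886 and 0.758. With 1 rat left out, miR-96-5p ran from -0.10 (without rat 2 of the NT3 group) to 0.0097 (without its rat 3), and miR-96-3p from -0.31 (without its rat 6) to -0.05 (without naive rat 5).

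Since both injured groups gave similar values, their mean was also set against naive in a single fit of the 3 groups, a contrast chosen after seeing the data. For miR-182, 11 of the 12 injured rats were above the naive mean and 7 were above the highest naive rat. In this contrast the log2 fold change was 0.19 ± 0.07 (SE; 95% interval 0.05 to 0.33), with an unadjusted p of 0.00943 and an adjusted p of 0.111 in edgeR. For miR-183-3p all 12 injured rats were above the naive mean and 6 were above the highest naive rat, and the difference was 0.24 ± 0.09 on the log2 scale (SE; 95% interval 0.04 to 0.43; edgeR adjusted p = 0.158). For miR-96-5p the value was 0.013 ± 0.08 (SE; 95% interval -0.16 to 0.19). For miR-96-3p it was -0.08 ± 0.19 (SE; 95% interval -0.49 to 0.32; edgeR adjusted p = 0.872), with 6 of the 12 injured rats above the naive mean and 0 above the highest naive rat. In this contrast 2.14% of tested miRNAs passed the adjusted threshold and 8.04% had an unadjusted p under 0.05 in the higher direction.

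**Figure D3:**
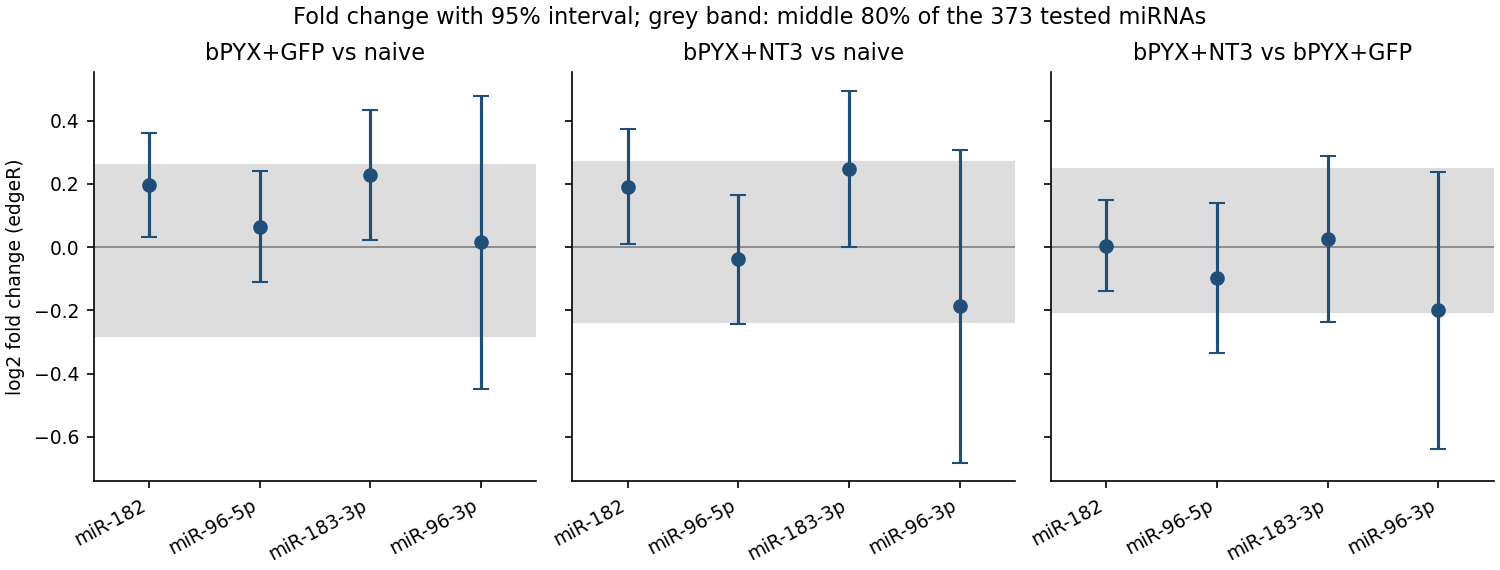
Fitted log2 fold change of each detected member in the 3 comparisons (points) with its 95% interval (bars). The grey band holds the middle 80% of the log2 fold changes of all 373 tested miRNAs, and all 12 points lie within it.

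In whole ganglia, a different number of cells of a type and a different amount of RNA per cell cannot be told apart. Lists of miRNAs known from other cells were read beside these values. The summed CPM of the glial list (2 of 5 miRNAs tested, led by miR-204-5p) ranged from 7071 to 12156 in naive rats, 7505 to 9799 in those with GFP and 5428 to 10773 in those with NT3. Its members miR-338-3p and miR-219a-2-3p were at 0 in every library. A 0 in the counts is not read as absence, for these or for other list miRNAs, as set out below for miR-183-5p. The blood and immune list (8 of 9 tested, led by miR-150-5p and miR-451-5p) ranged from 962 to 2821 in naive rats, 1496 to 3098 with GFP and 1234 to 2211 with NT3.

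The endothelial list, of which miR-126a-3p alone was tested and miR-126a-5p was at 0, ranged from 21029 to 29104 CPM in naive rats, 20900 to 26675 with GFP and 19523 to 28529 with NT3. The muscle list (2 of 4 tested, miR-206-3p and miR-133b-3p, with miR-1-3p and miR-133a-3p at 0) did not exceed 335.1 CPM in any library. That list left out muscle miRNAs with other names, which were added after their values were seen. miR-1b averaged 8630 CPM in naive rats, 9454 with GFP and 10615 with NT3. Its log2 fold change was 0.13 ± 0.07 (SE; edgeR unadjusted p = 0.0824, adjusted p = 0.313) in bPYX+GFP against naive and 0.30 ± 0.10 (SE; edgeR unadjusted p = 0.0121, adjusted p = 0.247) in bPYX+NT3 against naive. miR-499-5p averaged 796 CPM in naive rats, 740.2 with GFP and 674 with NT3, with a log2 fold change of -0.24 ± 0.11 (SE; edgeR unadjusted p = 0.0493, adjusted p = 0.349) in bPYX+NT3 against naive. The background for unadjusted calls in bPYX+NT3 against naive is 7.24% of tested miRNAs higher and 6.43% lower. None of the tested miRNAs in these 4 lists as written, without miR-1b and miR-499-5p, had an unadjusted p under 0.05 in edgeR in any of the 3 comparisons. Of the fibroblast list (3 of 3 tested), miR-199a-5p differed by -0.21 ± 0.10 on the log2 scale (SE; unadjusted p = 0.0416, adjusted p = 0.232 in edgeR) in bPYX+GFP against naive, and no other miRNA or comparison of that list passed. The background for that call is 10.5% of tested miRNAs in the lower direction. The part of other cell types in the values of the members was not tested.

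A general neuronal list was read beside the cluster. Of its 5 miRNAs 3 were tested, while miR-124-3p and miR-9a-5p stayed under the filter. Counts leave out reads of low alignment quality, so no statement on the level of miR-124-3p and miR-9a-5p is made. The most abundant was miR-128-3p at 8143 ± 1205 CPM (SD, n = 18), below miR-182 and above miR-96-5p. In bPYX+GFP against naive none of the 3 had an unadjusted p under 0.05, and their log2 fold changes were -0.10 for miR-128-3p, 0.13 for miR-137-3p and 0.0079 for miR-138-5p. In bPYX+NT3 against naive the log2 fold change of miR-137-3p was 0.56 ± 0.18 (SE; edgeR unadjusted p = 0.00618, adjusted p = 0.191) and that of miR-138-5p was 0.29 ± 0.12 (SE; edgeR unadjusted p = 0.0336, adjusted p = 0.349). The most abundant of the list, miR-128-3p, did not pass by unadjusted p in that comparison. In bPYX+NT3 against bPYX+GFP, miR-137-3p alone of the list passed by unadjusted p, with a log2 fold change of 0.44 ± 0.18 (SE; edgeR unadjusted p = 0.0276, adjusted p = 0.448). There miR-128-3p went the other way, by -0.10 ± 0.11 (SE; edgeR unadjusted p = 0.401, adjusted p = 0.830). The background for unadjusted calls in the higher direction is 7.24% of tested miRNAs in bPYX+NT3 against naive. In bPYX+NT3 against bPYX+GFP it is 5.09%. The summed CPM of the list averaged 9955 ± 1153 in naive rats, 9381 ± 427 with GFP and 9114 ± 1232 with NT3 (SD, n = 6 each).

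Ratios between members within a library do not depend on scaling, so they show whether members of the cluster differed unequally between groups. There were 4 ratios in 3 comparisons, each tested by a two-sided exact permutation test over all splits of the 12 rats, with p-values adjusted over the 12 tests, and none passed 0.05 after adjustment. The ratio of miR-182 to miR-96-5p ranged from 4.74 to 5.91 in naive, with a median of 5.33. In bPYX+GFP it ranged from 5.20 to 7.08, with a median of 5.92. In bPYX+NT3 it ranged from 5.26 to 7.22, with a median of 6.52. In bPYX+NT3, 5 of the 6 rats were above every naive rat, and replicate 2, at 5.26, lay within the naive range.

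The mean log2 ratio of miR-182 to miR-96-5p was 2.43 ± 0.12 in naive and 2.67 ± 0.15 in bPYX+NT3 (SD, n = 6 each). The difference of 0.24, or 1.18-fold, had an exact permutation p of 0.0173 and an adjusted p of 0.208. With naive replicate 1 left out the difference was 0.27, with the same adjusted exact permutation p of 0.208. Without bPYX+NT3 replicate 2 the difference was 0.30 and the adjusted exact permutation p 0.0260, and with each other rat left out it stayed above 0.05. In bPYX+GFP the mean log2 ratio was 2.57 ± 0.17, a difference of 0.14 from naive with an adjusted exact permutation p of 0.539. Omission of 1 rat at a time gave differences of 0.09 to 0.18.

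The counts of miR-183-3p came to 0.71 ± 0.11% of those of miR-96-5p in naive rats, 0.79 ± 0.09% in rats with GFP and 0.88 ± 0.22% in rats with NT3 (SD, n = 6 each). Differences of the log2 ratio from naive were 0.16 and 0.28, each with an adjusted exact permutation p of 0.539. Omission of 1 rat at a time gave 0.10 to 0.23 for the first and 0.20 to 0.40 for the second. Relative to miR-182, miR-183-3p counts came to 0.13 ± 0.02%, 0.13 ± 0.02% and 0.14 ± 0.03% in naive, GFP and NT3 rats. The log2 differences were 0.02 for bPYX+GFP against naive, 0.02 for bPYX+NT3 against bPYX+GFP and 0.04 for bPYX+NT3 against naive. All had an adjusted exact permutation p of 0.946. Each could change sign with 1 rat omitted, with ranges of -0.04 to 0.08, -0.05 to 0.08 and -0.03 to 0.10. The ratio of the arms miR-96-3p and miR-96-5p had log2 differences of 0.02 for bPYX+GFP against naive, -0.12 for bPYX+NT3 against bPYX+GFP and -0.10 for bPYX+NT3 against naive. These also had an adjusted exact permutation p of 0.946. Here too each could change sign with 1 rat omitted, with ranges of -0.15 to 0.14, -0.24 to 0.07 and -0.27 to 0.08.

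**Figure D4:**
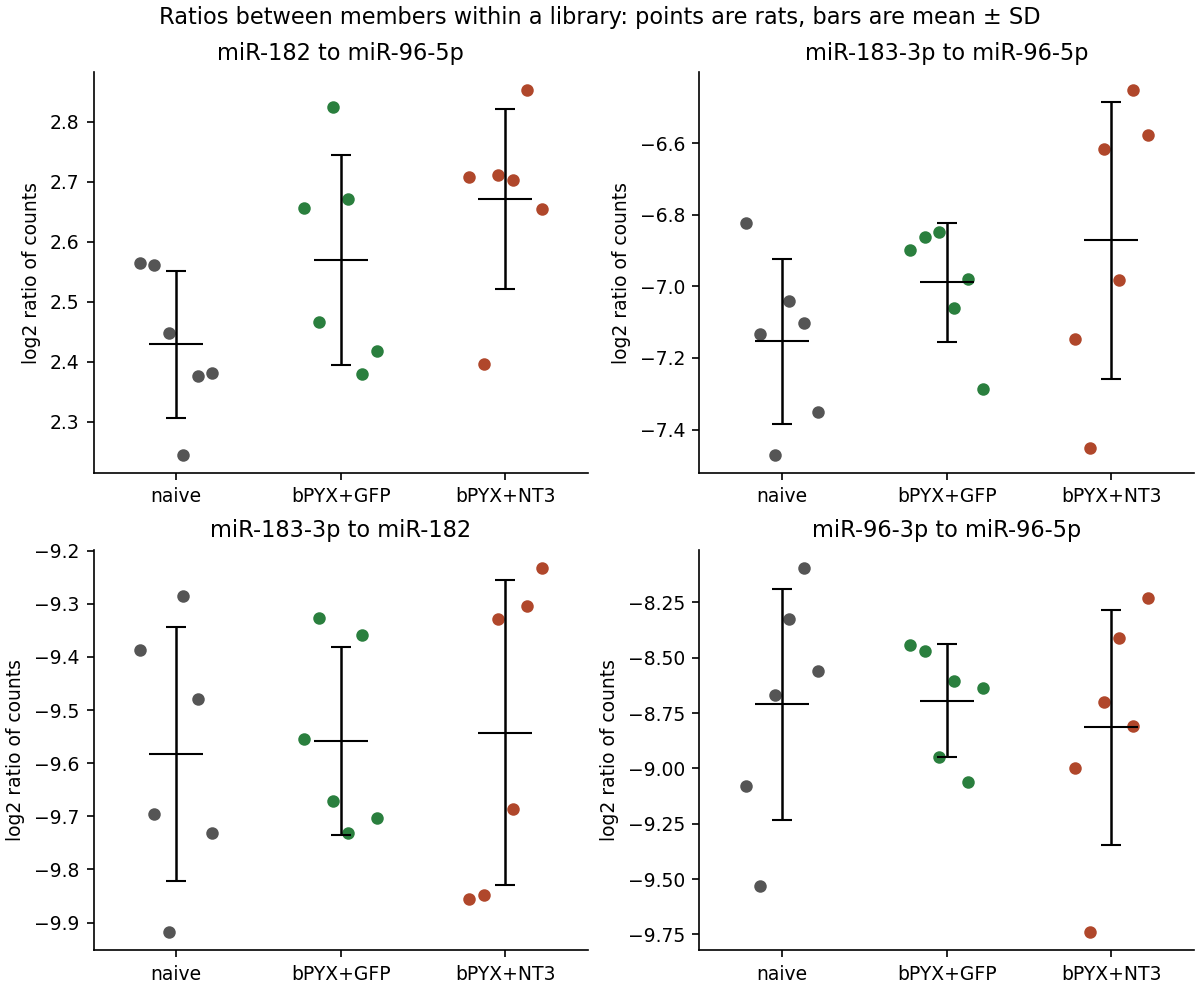
Log2 ratio of the counts of 2 members within each library (axes do not start at 0), with points for the 6 rats of each group and bars for mean ± SD. For miR-182 to miR-96-5p, bPYX+NT3 averages 2.67 and naive 2.43, with bPYX+NT3 replicate 2 among the naive rats.

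Covariation between members was read across the 18 rats for the 6 pairs of detected members. On TMM-scaled levels over all rats, miR-182 and miR-96-5p had the highest correlation, with Pearson's r = 0.40 and Spearman's rho = 0.45 (permutation p = 0.0998 and 0.0621, adjusted over the 6 pairs 0.599 and 0.373). Without the 2 rats farthest from the median of miR-182, r was 0.45. After centring on group means r was 0.51 (permutation p = 0.0302, adjusted p = 0.181), and within groups it was 0.65 for naive rats, 0.23 for those with GFP and 0.70 for those with NT3 (n = 6 each, with no test). Over all rats the other pairs had r between -0.25 and 0.18, with adjusted permutation p-values of 0.633 to 0.704. miR-182 and miR-183-3p had r = 0.18 (rho = 0.14), r = 0.00069 without the 2 farthest rats and r = -0.27 after centring. This pair depended on scaling: without TMM factors r was 0.47 and rho 0.59 (permutation p = 0.0508 and 0.0108, adjusted over the 6 pairs 0.153 and 0.0646), r was 0.47 without the 2 farthest rats, and its rho exceeded the 0.43 of miR-182 and miR-96-5p. Without the 2 rats farthest from the median of miR-96-3p, the TMM-scaled r of miR-96-3p and miR-96-5p was 0.51 (permutation p = 0.0432, adjusted p = 0.247), above that of miR-182 and miR-96-5p with its own 2 farthest rats left out.

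**Figure D5:**
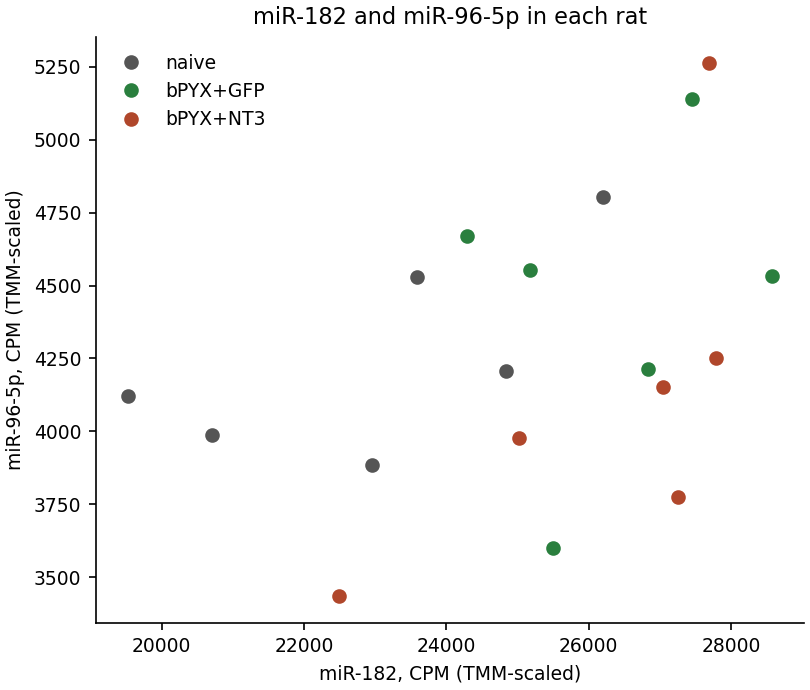
Level of miR-96-5p against that of miR-182 in each of the 18 rats (both in CPM after TMM scaling, axes do not start at 0), coloured by group. Pearson's r on the log2 scale is 0.40 over all rats and its adjusted permutation p is 0.599.

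The miRNAs most like each member over the 18 libraries were not other members. By Pearson's r of log2 level, given as a description over 372 others, the closest to miR-182 were miR-330-3p (0.639), miR-29b-1-5p (0.589) and miR-421-3p (0.586), and miR-96-5p came 24th. The closest to miR-96-5p were miR-376b-5p (0.813), miR-330-3p (0.795) and miR-132-5p (0.762), and miR-182 came 59th. Thus miR-330-3p stood among the 3 closest to both. The closest to miR-183-3p were miR-25-5p (0.701), miR-376c-3p (0.634) and miR-328a-3p (0.606). The closest to miR-96-3p were miR-411-3p (0.762), miR-296-3p (0.691) and miR-216b-5p (0.622). All these points share libraries and their depth.

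miR-183-5p, generally the main product of its hairpin, was listed at 0 counts in all 18 libraries. At 95% confidence a count of 0 allows up to 3 counts per library, which is 0.434 to 0.773 counts per M of miRNA counts without TMM scaling. The 3p arm of the same hairpin had 121 to 225 counts in the same libraries. In GRCr8 the mature miR-3553 lies on the plus strand opposite miR-183-5p. Its sequence is shown with the bases complementary to miR-183-5p in capitals, all 22 of them.
miR-3553: cAGUGAAUUCUACCAGUGCCAUA

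miR-3553 was itself at 0 in all libraries. A read that overlaps more than one annotated feature is set aside as ambiguous by HTSeq-count when strand is not used, and the strand setting used for these counts is not given in the sources used here. The ambiguous total took 324161 to 661241 reads per library, or 3.26 ± 0.25% of all entries (SD, n = 18). The other arms at 0 were therefore examined in the same way, a check added after seeing the data. Of 188 precursors with both arms listed and at least 1 arm past the filter, 22 (11.7%) had the other arm at 0 in every library. Of the 21 of these with a RefSeq position, 15 (71.4%) overlapped another mature miRNA on the opposite strand, against 6 of 350 tested miRNAs (1.71%). Those 6 had 250 to 3518 counts summed over all libraries, below the median of 5740 for tested miRNAs. None of the 4 detected members overlapped another mature miRNA. The part of the overlap in the 0 of miR-183-5p was not tested, and the annotation used for counting may place these miRNAs differently from GRCr8. No statement on the level of miR-183-5p in the ganglia is made here.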

How the data were processed

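Small RNA libraries (NEBNext kit, single-end reads, HiSeq) were prepared from 18 rats, 6 per group. The authors trimmed adapters, aligned reads with Bowtie2 to Rnor_5.0 and counted them with HTSeq-count, and the processing notes also name bcl2fastq 1.8.4. The deposited table holds whole-number counts for each mature miRNA, not normalized. Its totals of reads given to no miRNA entered neither library sizes nor tests. They held 3.20% of entries outside features, 3.26% ambiguous, 31.4% of low alignment quality and 27.2% not aligned, which leaves 34.9% in miRNAs. PCR copies are not independent molecules, so limits from counts cover counting error only.

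The 373 miRNAs with more than 10 counts in at least 6 of 18 libraries were tested in edgeR 4.0.16 (R 4.3.3) by the quasi-likelihood F test with TMM scaling on the 12 libraries of each comparison, adjusted by the Benjamini-Hochberg method, and members were read from that table. The study called miRNAs at an unadjusted p under 0.05, so both p-values are given. The likelihood ratio test was run as an alternative. Ratios and correlations were tested by permutation (scipy 1.17.1, with all splits or 100000 resamples). The scripts were tested on simulated data. Named miRNAs are the members, the 3 most correlated with each, those that share bases 2 to 7 with a member, the 2 of highest level in each cell type list and neighbours in rank. List miRNAs at 0 or under the filter, those of a list with an unadjusted p under 0.05, and miR-1b and miR-499-5p, were named after their values were seen. The members and lists were chosen with earlier results of these data known. Same-numbered rats were not treated as pairs. No library was a copy of another, the lowest chi-square per degree of freedom within a group being 39.6. Alternatives covered scaling, filter, test (DESeq2 1.42.0 among them), a joint fit, a replicate block and each library left out. Sequences were matched by name to RefSeq tables for GRCr8, where 688 of the 753 names were found.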

Additional observations from a re-analysis of the deposited data

How the results depend on the processing

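No member passed an adjusted p of 0.05 in any of the 3 comparisons under any alternative, which covered scaling, filter, test, joint fit, replicate block and each library left out. miR-96-3p has no value under the filter of more than 100 counts. The log2 fold change of miR-182 in bPYX+GFP against naive stayed between 0.15 and 0.24, with adjusted p-values of 0.110 to 0.311. The unadjusted p, which lies near 0.05, did move. For miR-183-3p in bPYX+GFP against naive it was 0.0516 with library size only and 0.0992 with edgeR's likelihood ratio test. For miR-183-3p in bPYX+NT3 against naive it was 0.0426 with size factors by median of ratios, 0.0295 with library size only, 0.0337 with the filter of more than 100 counts, 0.0415 with DESeq2 and 0.0335 with all 3 groups in 1 fit. For miR-182 in bPYX+NT3 against naive it was 0.0522 with edgeR's robust prior and 0.0744 with the replicate block. Over all 21 alternatives for that value, the unadjusted p from edgeR or DESeq2 ranged from 0.00455 to 0.102. It was under 0.05 in 16 of them. The cause of these moves was not tested.

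With each library left out in turn, the unadjusted edgeR p ranged from 0.00738 to 0.0574 for miR-182 and from 0.0153 to 0.0847 for miR-183-3p in bPYX+GFP against naive. In bPYX+NT3 against naive it ranged from 0.0128 to 0.102 for miR-182 and from 0.0173 to 0.135 for miR-183-3p, and for miR-96-5p in bPYX+NT3 against bPYX+GFP from 0.0474 to 0.543. The log2 ratio of miR-182 to miR-96-5p in bPYX+NT3 against naive ranged from 0.20 to 0.30. The count of miRNAs past the adjusted threshold in bPYX+GFP against naive was 23 with DESeq2 and 3 to 20 with a library left out, against 9. In bPYX+NT3 against naive it was 1 with DESeq2, the likelihood ratio test, the joint fit or rat 1 of bPYX+NT3 omitted, and 4 with rat 4 of bPYX+NT3 omitted. The unadjusted count in bPYX+NT3 against bPYX+GFP was 54 with no filter or without bPYX+NT3 replicate 4, against 32. In bPYX+NT3 against naive it was 32 without bPYX+NT3 replicate 3, against 51.

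Replicate numbers did not pair the rats. Deviations of the 18 same-numbered pairs correlated at -0.38 to 0.37, with 6 above 0.1, and the block changed no other call of a member. Correlations between members passed in no setting after adjustment. The r of miR-182 with miR-183-3p was 0.18 with TMM factors and 0.47 without. Of the detected members miR-96-3p had the fewest counts, 23 to 75 per library, and the part of depth in its spread was not tested.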
